A study of Mus musculus with 6 samples.

Results

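The RUNX genes Runx1, Runx2 and Runx3, their partner gene Cbfb and the ETO family genes Runx1t1, Cbfa2t2 and Cbfa2t3 were followed in sorted mouse spermatogonia. These 7 genes were picked by gene symbol from the 31918 genes of the deposited expression table, and each matched 1 row. The cells came from testes of mouse pups at postnatal day 8 transgenic for Id4-eGfp (LT11), whose fluorescence marks Id4 expression, and were separated by sorting. The 3 Bright libraries are labelled high and the 3 Dim libraries low for Id4, all 6 with the same transgene and age. No group without the transgene or of another age was analysed here. The labels do not say whether a library is 1 animal or a pool, so the spread between libraries may be technical. Bulk RNA cannot tell fewer cells of a type from less RNA per cell.

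RUNX proteins bind DNA through the Runt domain, and core binding factor beta (Cbfb), which does not bind DNA itself, joins that domain and strengthens the binding. In other tissues RUNX1 is known for blood formation, RUNX2 for bone and RUNX3 for T cells and sensory neurons. The ETO proteins, named after a leukaemia fusion of RUNX1 with RUNX1T1, are corepressors that reach DNA through other factors and recruit histone deacetylases. In the mouse germ line CBFA2T2 is known as a partner of PRDM14 in primordial germ cells.

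Stretches near the starts of Runx1, Runx2 and Runx3 hold letters that RUNX proteins recognise. They are shown because Runx2 and Runx3 are the members with the largest differences, and no link between the letters and the differences was tested. RefSeq windows (build GRCm38.p6), from 250 bases before to 50 after a start, were found for 6 of the 7 members, Runx1t1 having no entry. They were searched on both strands for the letters TGTGGT or TGCGGT, the known RUNX recognition letters. At least 1 match was held by 22.4% of all 32851 windows, 2 or more by 2.86% and 3 or more by 0.289%. The upstream windows of Runx1, Runx2 and Runx3 held 2, 4 and 2 matches, and those of Cbfb and Cbfa2t2 held 0. Of the windows of Cbfa2t3, 1 held 1 match and the other held 0. The second, downstream windows of Runx1 and Runx3 also held 0. The stretch below, with the matches in capitals and read on the strand of each gene, and the letters to search for were chosen after these windows had been seen.
Runx1, chr16:92826025-92826054, minus strand: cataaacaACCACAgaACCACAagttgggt
Runx2, chr17:44814583-44814612, minus strand: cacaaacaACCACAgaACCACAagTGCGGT
Runx3, chr4:135120503-135120532, plus strand: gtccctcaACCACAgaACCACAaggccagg
The longest run of letters shared by a window of each RUNX gene, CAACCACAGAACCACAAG, has 18 letters and occurred on either strand in 4 of the 32851 windows (0.0122%). These are the 3 above and that of Gm16225, whose window overlaps that of Runx3 in part and holds these letters on the other strand. The 3 above hold the run by the way it was chosen, so nothing is read from that share. The shared letters began at base 27 after the start in Runx1, at base 22 after it in Runx2 and at position -136, before the start, in Runx3.

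The 250 bases before that start are given for the members with the largest difference in each direction, again with matches in capitals. A match is a string of letters and not a measured binding site.
Runx2, chr17:44814628-44814877, minus strand: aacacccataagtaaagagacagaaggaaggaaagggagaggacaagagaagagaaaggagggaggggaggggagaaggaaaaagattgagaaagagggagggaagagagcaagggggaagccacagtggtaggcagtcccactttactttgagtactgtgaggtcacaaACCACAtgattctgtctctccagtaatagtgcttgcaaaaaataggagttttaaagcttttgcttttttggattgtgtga
Runx3, chr4:135120395-135120644, plus strand: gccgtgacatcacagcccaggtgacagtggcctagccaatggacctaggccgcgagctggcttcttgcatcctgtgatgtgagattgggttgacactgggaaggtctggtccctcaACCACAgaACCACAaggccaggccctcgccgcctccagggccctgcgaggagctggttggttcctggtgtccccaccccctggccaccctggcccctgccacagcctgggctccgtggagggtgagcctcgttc
The expression values are sums over all transcripts of a gene, so they do not say from which start the RNA came.

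Expression is given as FPKM, fragments scaled to transcript length and to the number of mapped fragments, which allows levels of different genes to be compared. From the step in low values, 1 read per kilobase was worth 0.0288 to 0.0465 FPKM, which puts the libraries at roughly 21500000 to 34700000 reads. Id4 was at 28.5 to 42.7 FPKM in Bright and 3.75 to 5.39 in Dim, as labelled. The germ cell markers Ddx4 and Dazl, which encode RNA-binding proteins, were at 203.2 to 284.5 and 437.7 to 669.7 FPKM over the 6 libraries. The libraries are therefore rich in germ cell transcripts. Bright 3 stood apart, with 6 Leydig cell markers summing to 1753 FPKM against 1.97 to 3.39 in the other 5 libraries. Macrophage markers summed to 145.3 FPKM in Bright 3, 49.1 in Dim 1 and 55.9 in Dim 2, against 3.38 to 3.91 in the remaining libraries.

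The family was proposed with the Bright and Dim values known. The values of the members below are therefore a description, with no test of their own. The limma model was fitted to log2(FPKM + 1) over the 13416 genes that reached 1 FPKM in 3 or more libraries, and called a gene at an adjusted p under 0.05. It called 22.5% of genes, 12.0% higher in Bright and 10.5% higher in Dim. Of the 7 members 5 entered the fit, and Runx1 and Runx1t1 did not. It called 2, Runx2 in the direction of Bright and Runx3 in that of Dim, a count from which nothing is read. Runx2 entered through its Bright libraries alone, so it had to differ to be included. With no filter on low values limma called 9.10% of 25647 genes, Runx2 and Runx3 again being the members among them. Library values below are listed in the order of replicates 1, 2 and 3.

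Runx3, which encodes the RUNX factor of T cells and sensory neurons, was the RUNX gene with the highest mean in both groups. The Bright libraries held 3.72, 2.23 and 2.01, the Dim libraries 17.3, 16.7 and 11.0 FPKM. Every Dim library was above every Bright library, and the lowest Dim value was well clear of the highest Bright value. The group means came to 2.66 ± 0.931 and 15.0 ± 3.46 FPKM (SD, n = 3 each), a 5.65-fold ratio of Dim over Bright. The log2 fold change, Bright minus Dim, was -2.13 with a standard error of 0.23. Runx3 (ENSMUSG00000070691) lies on GRCm38 chromosome 4, 135120652 to 135177990.

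Runx2, the factor of bone formation, ran the opposite way at a much lower level. Its Bright values were 1.29, 2.13 and 1.92 FPKM and its Dim values 0.16, 0.281 and 0.321. The groups did not overlap. Averaged, Bright and Dim were at 1.78 ± 0.436 and 0.254 ± 0.0836 FPKM (SD, n = 3 each), a 7.03-fold ratio of Bright over Dim. The log2 fold change on log2(FPKM + 1) was 1.14 with a standard error of 0.16, and it was 2.41 with a pseudocount of 0.1, because the added 1 exceeds the Dim values. These Dim values rest on about 4.19 to 10.8 reads per kilobase, against 27.8 to 66.8 in Bright. Runx2 (ENSMUSG00000039153, chromosome 17, 44495987 to 44814797, minus strand) shares 519 exonic bases with the antisense transcript Runx2os1. Runx2os1 was at 0.342, 0.711 and 0.168 in the Bright and 0, 0.331 and 0.131 FPKM in the Dim libraries. Whether the libraries keep strand is not given in the sources used here, so reads over the shared bases cannot be assigned. Supt3, whose gene overlaps Runx2 on the other strand, shares 0 exonic bases with it and was not called (24.5 ± 6.01 FPKM in Bright and 23.1 ± 3.34 in Dim, SD, n = 3 each, limma adjusted p = 0.835).

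Runx1, the factor of blood formation, was low in every library. Bright libraries gave 1.10, 0.862 and 1.41 and Dim libraries gave 0.462, 0.485 and 0.542 FPKM. All Bright values were above all Dim values, a 2.27-fold ratio of the means, 1.13 ± 0.277 over 0.496 ± 0.0412 FPKM (SD, n = 3 each). It reached 1 FPKM in 2 libraries, so it was not part of the fit, and the difference on log2(FPKM + 1) was 0.50. Runx1 (ENSMUSG00000022952) lies on chromosome 16, 92601466 to 92826149, on the minus strand, and shares 106 exonic bases with the antisense transcript Gm26626.

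**Figure D1:**
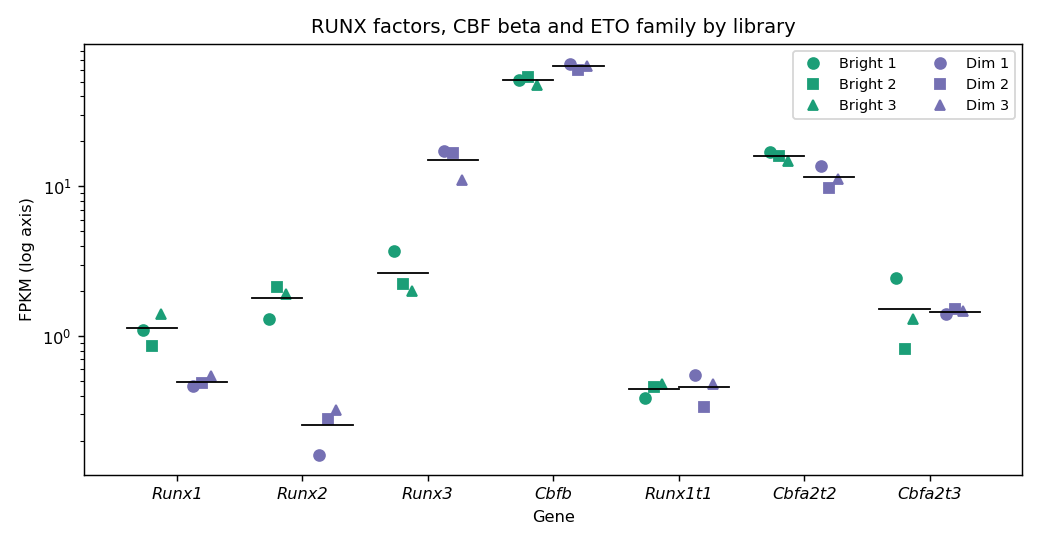
FPKM (log axis) of the 7 genes in each library, Bright in green and Dim in purple, with a symbol for each replicate number and a bar at each group mean. Runx3 sits at 2.01 to 3.72 in Bright and 11.0 to 17.3 in Dim, while Runx1 and Runx2 lie lower in Dim than in Bright.

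The mix of RUNX transcripts differed between the groups. Of the summed FPKM of Runx1, Runx2 and Runx3, Runx3 made up 60.9, 42.7 and 37.6% in the Bright libraries and 96.5, 95.6 and 92.8% in the Dim libraries. The mean shares were 47.1% ± 12.2 in Bright and 95.0% ± 1.97 in Dim (SD, n = 3 each). In Bright 2 and Bright 3 the share of Runx2 was close behind, at 40.8 and 36.0%, whereas in Bright 1 it was 21.2%. In Dim it was 0.892 to 2.7%. The summed RUNX level was 5.22 to 6.12 FPKM in Bright and 11.9 to 17.9 in Dim.

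Cbfb, which encodes the shared non-DNA-binding subunit, was by far the most abundant member. The Bright libraries held 51.4, 54.1 and 47.9, the Dim libraries 66.1, 59.6 and 64.1 FPKM. The groups did not overlap, but the ratio of Dim over Bright was 1.24, and limma did not call it (log2 fold change -0.30 ± 0.12 SE). With 51.1 ± 3.11 and 63.3 ± 3.35 FPKM (SD, n = 3 each), Cbfb stood above 83.9% of tested genes in Bright and 87.2% in Dim. Cbfb exceeded the summed RUNX level 8.41, 10.3 and 8.95 times in the Bright libraries and 3.68, 3.41 and 5.39 times in the Dim libraries. Cbfb (ENSMUSG00000031885) lies on chromosome 8, 105170674 to 105217989. These are RNA levels, and no protein was measured.

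**Figure D2:**
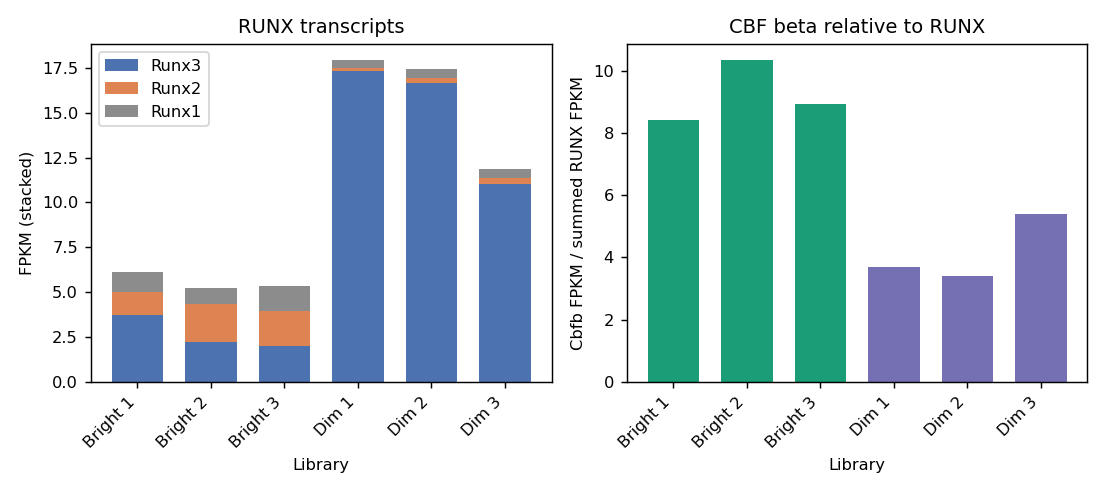
Left, stacked FPKM of Runx3, Runx2 and Runx1 in each library, and right, Cbfb FPKM divided by their sum. Runx3 fills 92.8 to 96.5% of the Dim bars and 37.6 to 60.9% of the Bright bars, and Cbfb is 3.41 to 10.3 times the sum.

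Among the ETO family genes, Cbfa2t2 held 84.1 to 92.6% of the family's summed FPKM in each library. Its Bright values were 17.0, 15.9 and 14.8 FPKM and its Dim values 13.7, 9.75 and 11.2. All Bright values were above all Dim values, though Dim 1 came close to Bright 3. By group the averages were 15.9 ± 1.07 and 11.6 ± 2.0 FPKM (SD, n = 3 each), a 1.38-fold ratio of Bright over Dim. It was not called (log2 fold change 0.44 ± 0.15 SE), but was called without Dim 1 (0.56 ± 0.17 SE). Cbfa2t2 (ENSMUSG00000038533) lies on chromosome 2, 154436481 to 154539356.

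Cbfa2t3, the ETO family corepressor known from blood cells, measured 2.44, 0.815 and 1.3 in the Bright and 1.40, 1.51 and 1.46 FPKM in the Dim libraries. The Dim values lay within the Bright range, and the Bright SD of 0.836 FPKM was many times the Dim SD of 0.057. It was not called, and its log2 fold change of -0.02 ± 0.23 SE turned to 0.01 with median-ratio scaling. It was -0.27 without Bright 1, 0.19 without Bright 2 and 0.02 without Bright 3. Runx1t1, the gene of the ETO protein itself, measured 0.385, 0.456 and 0.48 in the Bright and 0.553, 0.338 and 0.477 FPKM in the Dim libraries. It stayed under 1 FPKM in all 6 libraries and was not part of the fit, and its groups overlapped. Cbfa2t3 (ENSMUSG00000006362) is on chromosome 8 and Runx1t1 (ENSMUSG00000006586) on chromosome 4, 13743436 to 13893649.

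Bright and Dim were fully apart in 5 of the 7 genes, against 30.1% of the 25647 genes above 0 in any library and 41.1% of tested genes. Since the family was chosen with these values known, nothing is read from that count. In Bright the order of the means was Cbfb, Cbfa2t2, Runx3, Runx2, Cbfa2t3, Runx1 and Runx1t1, in which the neighbours from Runx3 to Runx1 overlapped in their library values. In Dim it was Cbfb, Runx3, Cbfa2t2, Cbfa2t3, Runx1, Runx1t1 and Runx2, with overlap between Runx3 and Cbfa2t2 and between Runx1 and Runx1t1. Runx2 was thus the fourth of 7 in Bright and the last in Dim.

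The authors' deposited tables give the ratio within each pair of libraries with the same number, Bright over Dim, scaled apart from the values above. In the authors' deposited tables the log2 ratio of Runx3 was -2.29, -2.87 and -2.54 in pairs 1, 2 and 3. For Runx2 the authors' deposited tables list 2.83, 3.20 and 2.40, and for Runx1 0.96, 0.74 and 1.23. Each of these genes kept its direction in all 3 pairs, and so did Cbfb and Cbfa2t2. Cbfa2t3 did not, with log2 ratios of 0.77, -0.85 and 0.08 in the authors' deposited tables.

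Markers of other testis cells moved with part of these values. Runx3 was higher in Dim 1 and Dim 2, where macrophage markers summed to 49.1 and 55.9 FPKM, than in Dim 3, where they summed to 3.91. Bright 3 held the highest macrophage sum, 145.3 FPKM, and the lowest Runx3 value, 2.01. In the 3 libraries with low macrophage sums, Runx3 was at 3.72 and 2.23 FPKM in Bright 1 and 2 and at 11.0 in Dim 3. What macrophages contribute to the Runx3 values was not tested. Among 5 T cell markers, Cd3d and Cd3g were at 0 to 0.0733 FPKM outside Bright 3, where they were at 0.248 and 1.44. Cd3e, another part of the T cell receptor complex, ran in the direction of Runx3, at 0.601, 0.444 and 0.761 in the Bright and 1.32, 1.02 and 0.814 FPKM in the Dim libraries, without overlap. It was not part of the fit, and its part in the Runx3 values was not tested. The summed T cell markers were at 3.52 to 6.57 FPKM in Bright and 2.93 to 3.77 in Dim. The kinase gene Lck, the highest of them, ran the opposite way to Runx3, also without overlap. It was at 2.56, 2.81 and 3.64 FPKM in the Bright and 1.88, 1.77 and 1.97 in the Dim libraries. Lck was not called (limma adjusted p = 0.0644), and Cd247, another of these markers, overlapped between the groups.

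Runx1 was highest in Bright 3, the library with Leydig markers, where the hormone gene Insl3 reached 1370 FPKM. Without that library, Runx1 was at 1.10 and 0.862 FPKM in Bright, against 0.462 to 0.542 in Dim. Bright 3 also held the highest sums of the macrophage, Sertoli, myoid and stromal, endothelial, and erythroid and megakaryocyte markers. The part of Leydig cells or of these other cells in the Runx1 values was not tested. Runx2 was not highest in Bright 3 but in Bright 2. The 6 endothelial markers summed to 8.6, 7.02 and 22.8 FPKM in Bright 1, 2 and 3 and to 2.89 to 3.13 in Dim. They were thus higher in Bright, as Runx1 and Runx2 were. Within Bright, the sum of these markers was lowest in Bright 2, where Runx1 was lowest and Runx2 highest. Of the 4 tested, limma called 4 higher in Bright, against 12.0% of all genes. Its adjusted p was 0.00197 for Kdr, a VEGF receptor, 0.0443 for Cdh5, VE-cadherin, 0.0487 for Pecam1 and 0.019 for Tek. Kdr, Cdh5 and Tek were under 1 FPKM in every Dim library, so they entered the fit through Bright alone. Like Runx2, they had to differ to be included, so nothing is read from that count. Vwf was at 0.59, 0.551 and 3.93 FPKM in the Bright and 0.26 to 0.403 in the Dim libraries. Emcn was at 0.0712, 0.0527 and 2.22 in the Bright and 0 to 0.0493 in the Dim libraries. Neither was part of the fit. Whether these markers came from endothelial cells was not tested, nor was the part of such cells in the Runx1 and Runx2 values.

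Sertoli markers summed to 52.2 to 79.4 FPKM outside Bright 3 and to 377 in it, with Ctsl, a lysosomal protease gene, the highest of them. The 10 myoid and stromal markers summed to 281.2 FPKM in Bright 3 and 26.3 to 38.2 in the other libraries, and their highest value was Dcn, decorin, at 151.2 FPKM in Bright 3. Of the 6 myoid and stromal markers tested, 1 was called, higher in Bright, and 5 were not called. The called gene was Pdgfra, a PDGF receptor gene of stromal cells, higher in Bright as Runx1 and Runx2 were. It was at 6.13, 6.46 and 13.6 in the Bright and 1.19 to 1.53 FPKM in the Dim libraries (limma adjusted p = 0.00157). Its part in the Runx1 and Runx2 values was not tested. Of the 7 erythroid and megakaryocyte markers found in the table, Pf4 was the highest, at 15.6 FPKM in Bright 3, and the sums ran from 0.91 to 35.3 FPKM. Lyz2, lysozyme, at 65.4 FPKM in Bright 3, led the macrophage list.

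**Figure D3:**
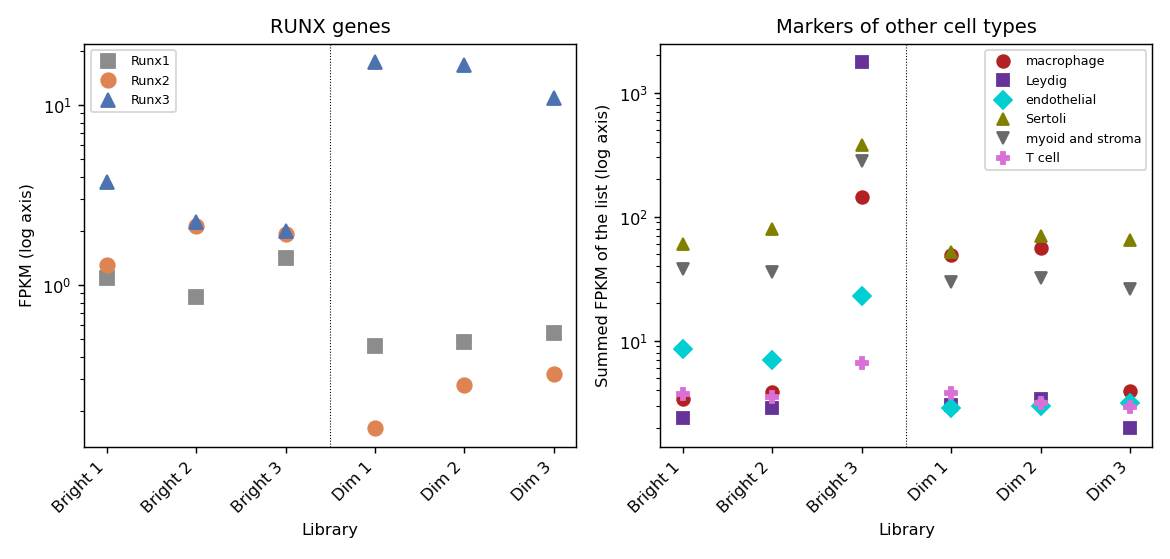
Left, FPKM of Runx1, Runx2 and Runx3 in each library, and right, the summed FPKM of marker lists of other cell types (log axes, a dotted line between Bright and Dim). Bright 3 holds the highest marker sums, including 1753 for Leydig cells, while its Runx3 value is the lowest of the 6.

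Of 32 coregulators and binding partners of RUNX proteins, 28 were tested, with 1 called in the Bright and 2 in the Dim direction, 10.7% of those tested against 22.5% of all genes. Their median log2 fold change was 0.11, against -0.03 over all tested genes. Gata2, a zinc finger factor, measured 2.51, 2.08 and 3.40 in the Bright and 6.64, 5.65 and 6.21 FPKM in the Dim libraries (log2 fold change -0.98 ± 0.17 SE, limma adjusted p = 0.00524). Smad1, which carries BMP signals, was at 10.1 to 11.3 FPKM in Bright and 16.8 to 17.5 in Dim (log2 fold change -0.62 ± 0.12 SE, limma adjusted p = 0.00875). Gata2 and Smad1 were called whichever library was left out. Suv39h1, a histone methyltransferase, was at 68.4 to 87.9 FPKM in Bright and 56.3 to 57.2 in Dim (0.48 ± 0.14 SE, limma adjusted p = 0.0368). This call held without Bright 3 (0.0173) but was lost without Bright 1, Bright 2, Dim 1, Dim 2 or Dim 3 (0.12, 0.084, 0.0814, 0.104 and 0.127). The Groucho corepressor genes Tle1, Tle2, Tle3, Tle4 and Tle6, the coactivator genes Ep300 and Crebbp and the Hippo effectors Yap1 and Wwtr1 were tested and not called.

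Of 24 partners of the ETO family, 21 were tested, with 4 called in the Bright and 3 in the Dim direction, 33.3% of those tested against 22.5% of all genes, with a median log2 fold change of 0.08. Among those higher in Bright were Zbtb16, which encodes PLZF, Tbl1xr1, a subunit of a histone deacetylase complex, and Tcf4, an E protein. Zbtb16 was at 66.5 to 100.7 FPKM in Bright and 31.7 to 47.9 in Dim (0.92 ± 0.21 SE, limma adjusted p = 0.015). Zbtb16 was called whichever library was left out. Tbl1xr1 was at 35.8 to 44.8 and 20.6 to 27.9 FPKM (0.70 ± 0.16 SE, limma adjusted p = 0.0145), which missed the threshold when Dim 2 (0.0511) or Dim 3 (0.0591) was left out. Tcf4 was at 8.42, 6.52 and 13.5 FPKM in Bright 1, 2 and 3, highest in the library with markers of other cells, and at 3.89 to 5.75 in Dim (limma adjusted p = 0.0459). Its call was kept without Bright 2 (0.0182) and lost without Bright 1, Bright 3, Dim 1, Dim 2 or Dim 3 (0.0819, 0.0972, 0.0894, 0.122 and 0.0684).

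Higher in Dim were Zfp652, Gps2 and Hdac3. Zfp652, a zinc finger repressor whose human counterpart binds CBFA2T3, measured 16.2, 12.4 and 11.6 in the Bright and 26.9, 22.7 and 22.2 FPKM in the Dim libraries (log2 fold change -0.80 ± 0.16 SE, limma adjusted p = 0.00908). It was called whichever library was left out. Gps2, another subunit of that deacetylase complex, was at 29.4 to 37.5 FPKM in Bright and 42.8 to 55.8 in Dim (-0.53 ± 0.16 SE, limma adjusted p = 0.0449). It kept its call without Bright 2 (0.0313) and lost it without Bright 1, Bright 3, Dim 1, Dim 2 or Dim 3 (0.121, 0.115, 0.0521, 0.151 and 0.0889). Hdac3, the deacetylase of that complex, was at 40.6 to 48.0 and 55.6 to 68.0 FPKM (-0.45 ± 0.14 SE, limma adjusted p = 0.0467). Hdac3 was not called once any library was left out, at 0.143, 0.0544 and 0.081 without a Bright library and 0.0896, 0.172 and 0.0901 without a Dim library. Ncor1, Sin3a, Hdac1 and Hdac2 were not called. Prdm14, the partner of CBFA2T2 in primordial germ cells, was at 0.078 to 0.25 FPKM and was not part of the fit.

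Of 26 genes described as RUNX targets in bone, blood or T cells, 10 were tested, and Bglap alone among the other 16 passed 1 FPKM in any library, at 1.32. By limma 1 was higher in Dim and 0 were higher in Bright, 10% of those tested against 22.5% of all genes. Without adjustment 4 and 1 had p under 0.05, in the same order, against 2370 and 2380 of all 13416 genes. The median log2 fold change of the targets was -0.22, against -0.03 over all tested genes. The list was not split into genes that RUNX proteins raise and genes they lower, so nothing is read from that median. The called gene was Ntrk3, which encodes the neurotrophin receptor TrkC and is linked to Runx3 in mouse sensory neurons. Bright libraries gave 1.37, 1.44 and 0.759 and Dim libraries gave 4.88, 5.72 and 3.40 FPKM. The log2 fold change was -1.36 ± 0.21 SE (limma adjusted p = 0.0028), and the gene was called whichever library was left out (0.00455 to 0.0111). Cdkn1a, which encodes p21, and Spp1, osteopontin, were not called (limma adjusted p = 0.18 and 0.0708).

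**Figure D4:**
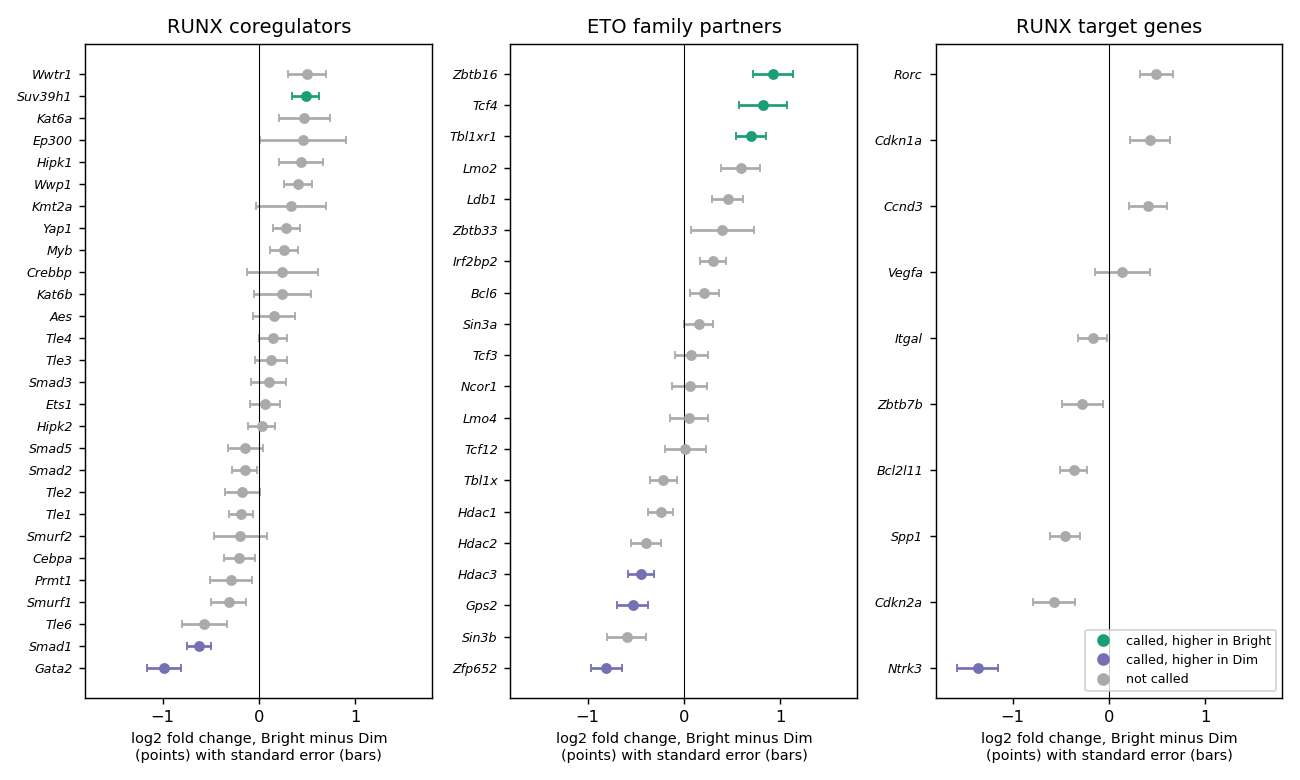
Log2 fold change (Bright minus Dim, on log2 of FPKM + 1) with its standard error for tested genes of the 3 lists, green where called higher in Bright, purple where called higher in Dim and grey where not called. Ntrk3 at -1.36 lies farthest from 0, and 25 of 28 RUNX coregulators are grey.

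Genes with the most similar profile over the 6 libraries were ranked by the root-mean-square difference of log2(FPKM + 1) after centring each gene. The ranking is a description, since the group difference makes up most of each profile. The closest to Runx3 were Tbkbp1, an adaptor of the kinase TBK1, at 0.08, Sept5, a septin, at 0.20, and Cpne2, a copine, at 0.21. Tbkbp1 was at 1.99, 1.26 and 1.10 in the Bright and 11.0, 9.58 and 6.54 FPKM in the Dim libraries, so that like Runx3 it was highest in Bright 1 within Bright and lowest in Dim 3 within Dim. The closest to Runx2 were Caly, a neuronal vesicle protein gene, at 0.04, Pax7, a paired box factor known from muscle satellite cells and from rare mouse spermatogonia, at 0.04, and Ccdc125 at 0.06. Pax7 was at 2.09, 3.10 and 2.69 in the Bright and 0.525, 0.596 and 0.646 FPKM in the Dim libraries.

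**Figure D5:**
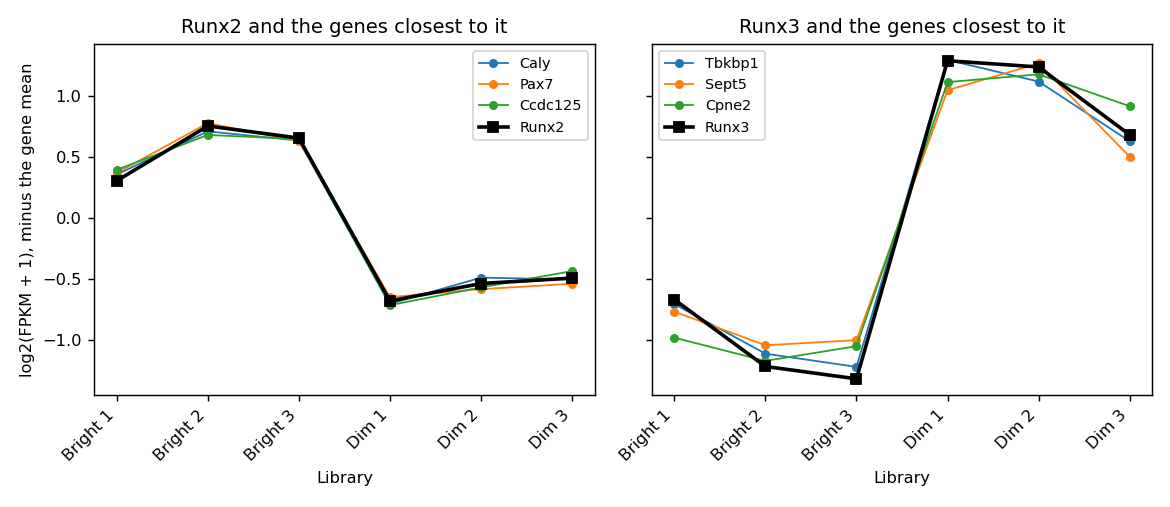
Log2(FPKM + 1) minus the gene mean in each library for Runx2 (left, black) and Runx3 (right, black) with the 3 closest genes of each, lines only joining the points of a gene. Tbkbp1 follows Runx3 with a root-mean-square difference of 0.08, and Caly and Pax7 follow Runx2 with 0.04 each.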

How the data were processed

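RNA extracted with Trizol was turned into cDNA from oligo d(T) primers, per the labels' protocols. The submitters' processing notes name TopHat2 2.1.1, Cufflinks 2.2.1 and the build mm9, with no parameters. The authors deposited FPKM values for 31918 Ensembl genes, and comparison tables with log2 ratios, p-values and q-values whose test the file headers do not describe. Their p-values and q-values are not used here. Gene coordinates of the table equal those of GENCODE M21 on GRCm38 for 81.0% of 31584 shared identifiers and for 6 of the 7 members, so they are given on GRCm38.

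FPKM was used as log2(FPKM + 1) without rescaling, for genes reaching 1 FPKM in 3 or more of 6 libraries. The difference between Bright and Dim was fitted by limma 3.58.1 under R 4.3.3, using a mean-variance trend, robust moderation and Benjamini-Hochberg adjustment at 0.05, and the procedure was tested on simulated data. Depth was estimated from genes with 1 annotated transcript, where 88.7 to 90.0% of values under 4.5 reads lay within 0.2 of a whole read. Whole reads of genes with several transcripts were not recovered, and no count test was run. No per-sample column was left unused (0). The symbol Itgam matched 2 identifiers.

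The members and lists were chosen with earlier results of these data known. Named were all members, up to 4 called genes per list and direction, the 3 closest profiles of each called member, and the highest gene of each marker list. The values of 1 called ETO partner are not reported here. Tle, Ep300, Crebbp, Yap1, Wwtr1, Ncor1, Sin3a, Hdac1, Hdac2, Prdm14, Bglap, Cdkn1a, Spp1, Supt3, Runx2os1, Pdgfra, endothelial and T cell genes were named after their values were seen. Alternatives were another pseudocount, no filter, median-ratio scaling, a replicate block, limma without trend, and each library left out.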

Additional observations from a re-analysis of the deposited data

How the results depend on the processing

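The values of Runx2 and Runx3 are a description here too, since they were known when the family was proposed and Runx2 entered the fit through Bright alone. Without each library in turn the log2 fold change of Runx3 ran from -2.33 to -2.01 and that of Runx2 from 1.05 to 1.27. Leaving out Bright 3, Dim 1 and Dim 2 together, the libraries with macrophage markers (chosen after seeing the data), gave -1.62 ± 0.31 and 1.02 ± 0.27 SE, with the lone Dim library assumed to vary like Bright. Over all genes that setting called 770 in place of 3016, and 1 RUNX coregulator, 0 ETO partners and 0 RUNX targets.

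With each library left out, all genes called ran from 1957 to 2603, members from 2 to 3, RUNX coregulators from 2 to 3, ETO partners from 3 to 6 and RUNX targets from 1 to 2. ETO partners fell from 7 to 4 with no filter on low values and to 4 without trend and robust estimation. Median-ratio scaling moved the median of all genes from -0.03 to -0.01. With Runx1 and Runx3 alone, the Runx3 share was 27.3 percentage points higher in Dim, against 47.9 with Runx2 included.

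Replicate numbers were not taken as pairs. The deviations of same-numbered libraries correlated at 0.435, 0.511 and -0.194 across genes, and Bright 3 correlated best with Dim 1 (0.14). Bright 1 and Dim 2 correlated at -0.547, and Bright 2 and Dim 1 at -0.603. Libraries numbered 1 and 2 thus correlated best with their own number, and those numbered 3 did not. These values do not settle whether the libraries are paired. With a replicate block 5453 genes, 4 members (Cbfb and Cbfa2t2 added), 11 RUNX coregulators, 12 ETO partners and 6 RUNX targets were called. Values of Runx1, Runx1t1 and Runx2 in Dim are limited by depth, at about 4.19 to 18.2 reads per kilobase.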
